A study of Mus musculus with 18 samples.

Results

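The 10 genes described here encode Piwi proteins and their partners in the piRNA pathway: Piwil1, Piwil2, Piwil4, Mael, Ddx4, Tdrd1, Tdrd6, Tdrd9, Mov10l1 and Asz1. The rule lists them by name and uses no measured value, and all 10 were found among the 34932 genes of the count table by their Ensembl identifiers. The libraries came from testis, brain and liver of mice given chronic restraint stress (an animal is repeatedly held so that it cannot move about) and of controls, with 3 libraries in each of the 6 groups. The labels do not give strain, age or the duration of the stress, and no genetic change is named for any group. Codes in the labels recur over the 3 tissues and were read as animals. Nothing else states that the libraries come from separate animals, so the p-values measure the spread between these libraries. The sample labels say brain where the extraction text says hippocampus. The description of the third stress brain library gives a code of the control kind. Its title, its treatment and the code heading its column of counts say stress. That library was kept in the stress group.

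piRNAs are small RNAs of animal germ cells that guide Piwi proteins, the germline branch of the Argonaute family, to transposon and other transcripts. Long precursor transcripts are unwound, cut at the surface of mitochondria, loaded into Piwi proteins and trimmed, largely within the cytoplasmic granules called nuage, whose scaffolds are Tudor domain proteins that bind methylated arginines of Piwi proteins. In the mouse testis one wave of piRNAs acts in fetal germ cells, where it directs DNA methylation of transposons, and a more abundant wave appears in pachytene spermatocytes, the cells in the middle of meiosis, and is needed for sperm formation. Loss of most of these genes makes male mice sterile.

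Library totals lay between 27845840 and 36497096 counts, with 28507662 to 33484571 in stress testis and 27845840 to 31375726 in control testis. Tissue labels were checked against marker genes. In testis the 8 elongating spermatid markers summed to between 19290 and 22590 CPM (read counts scaled to library size), against 93.08 to 117.6 CPM in brain and 10.86 to 13.01 CPM in liver. The neuron markers summed to 50.89 to 100.5 CPM in testis, against 5435 to 6515 CPM in brain, and the hepatocyte markers to 1.254 to 2.514 CPM in testis, against 66370 to 90670 CPM in liver. Not every list separated the tissues. The hepatocyte markers ran from 0.685 to 496.6 CPM in brain. The spermatogonia markers summed to 175.8 to 237.2 CPM in brain, against 78.15 to 81.4 CPM in testis. The Sertoli cell markers summed to 1502 to 1719 CPM in liver, against 1175 to 1994 CPM in testis. The second stress testis library stood apart from the other 5. In it 4.77% of all tested genes lay more than 2-fold from the control mean, against 0.582% and 0.387% in the other two stress testis libraries and at most 0.105% in any control testis library. Stress results in testis for the tested members, and for most of the other genes named, are therefore given with and without it.

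The pathway was expressed in testis and barely outside it, and 9 of the 10 genes were higher in control testis than in control brain by ratios from 152 (Piwil2) to 15300 (Mael), with Asz1 uncounted in brain. Over control liver the smallest ratio of these 9 was 719 (Piwil2). Control libraries were compared between tissues with edgeR's quasi-likelihood test and Benjamini-Hochberg adjustment over all tested genes, with an adjusted p of 0.05 as the threshold. All 9 members that passed the filter on low counts were called higher in testis than in brain, where 47% of 21087 tested genes were called higher. The same 9 were called higher in testis than in liver, where 54% of 20079 tested genes were. Most genes differ between these tissues, so the calls say little by themselves and the sizes of the differences are given instead. The filter keeps a gene that is abundant in one tissue only, which is how the 9 members passed it. The ratios below are of counts summed over the 3 control libraries of each tissue and scaled to library totals, with exact 95% intervals for counting error only.

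**Figure D1:**
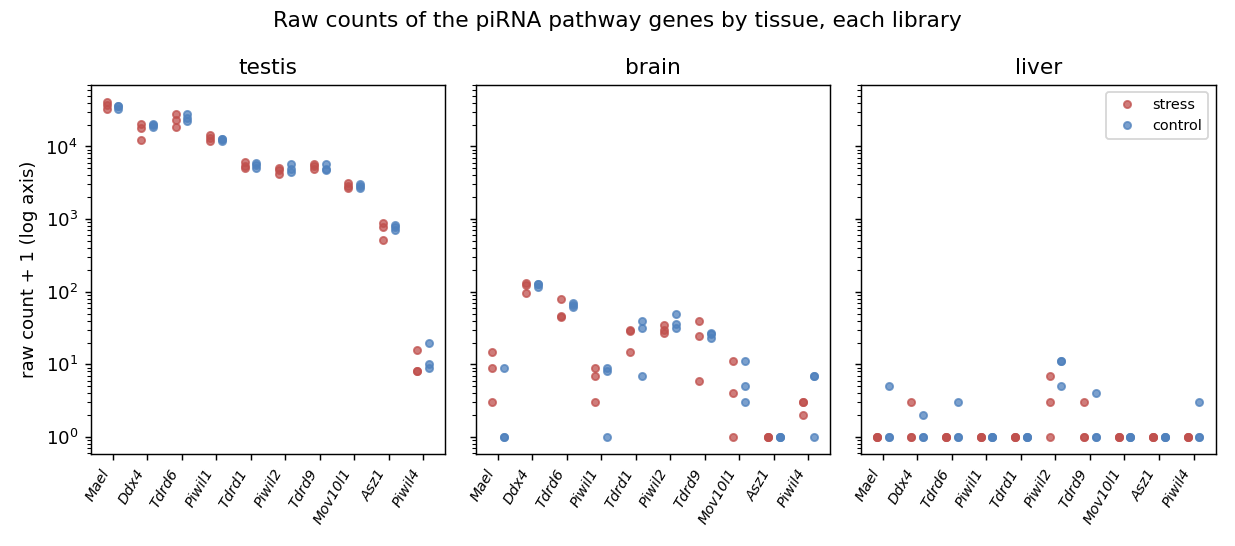
Raw counts plus 1 of the 10 piRNA pathway genes in each library (log axis), with testis, brain and liver in separate panels and stress points left of control points. Testis counts of 9 genes lie far above those in the other tissues, Piwil4 has at most 19 counts in any testis library, and no member passes 131 counts in brain or 10 in liver.

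Piwil1 (MIWI), which carries pachytene piRNAs in spermatocytes and round spermatids, had 37156 counts in the 3 control testis libraries, against 15 in control brain and 0 in control liver. That is 2880 times the brain level (interval 1740 to 5140) and at least 14200 times the liver level, the bound being set by 3 counts over the group. Piwil2 (MILI), which acts in fetal as well as adult male germ cells, had 15068 counts in control testis and 115 in control brain, a ratio of 152 (127 to 184). Its 24 counts in control liver gave a ratio of 719 (483 to 1120). Piwil4 (MIWI2), the nuclear Piwi protein of fetal germ cells in the mouse, had only 36 counts in control testis, against 12 in control brain and 2 in control liver. Its ratio was 3.48 to brain (1.77 to 7.35) and 20.6 to liver (5.31 to 177), so it had the same direction as the others near the limit of counting. Piwil4 did not pass the filter in the reported fits. Of the alternatives that tested it, 5 of 6 called it higher in testis than in brain and 6 of 6 than in liver. All of these kept control testis library 1, which held 19 of the 36 counts, and fits without that library did not test Piwil4. Without it the ratio of counts was 2.45 to brain and 14.5 to liver. The number of such calls is therefore no separate support.

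Among the partners, Mael, a nuage protein needed for transposon silencing and meiosis, had the widest difference from brain, with 105536 counts in control testis, against 8 in control brain (ratio 15300, interval 7770 to 35500). All 8 of those brain counts lay in control brain library 1, and the ratio was 9870 without control brain library 3, so the interval, which covers counting error only, does not describe the spread between brain libraries. Ddx4 (the mouse VASA homologue), an RNA helicase used as a marker of germ cells, had 58759 counts in control testis, against 369 in control brain (185, 167 to 205) and 1 in control liver. Tdrd6, a Tudor protein of the chromatoid body of spermatids, was 447 times higher in control testis than in control brain (388 to 517), and Tdrd1, the Tudor partner of Piwil2 in the cement between mitochondria, 254 times higher (203 to 323). Tdrd9, which joins a Tudor domain to a helicase, was 246 times higher (196 to 314). Mov10l1, the helicase that binds piRNA precursors, was 621 times higher in control testis than in control brain (382 to 1090). Its brain counts were 4, 2 and 10, and without the third of those libraries the ratio was 1070. Asz1 (GASZ), a protein of the outer mitochondrial membrane that holds the piRNA machinery there, had no count in any of the 12 brain and liver libraries and was at least 897 times higher in control testis than in control brain.

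The wider machinery shared this distribution only in part. Of 15 other piRNA biogenesis factors, all were called higher in control testis than in control brain and than in control liver, where 47% and 54% of all genes were. Several of them were plainly present outside the testis. Tdrd7, a Tudor protein also known from the eye lens, had 29.05, 29.85 and 40.92 TPM (the authors' counts scaled to gene length and library size) in control brain. Tdrkh, which tethers Piwi proteins to mitochondria, had 29.53, 27.32 and 25.52 TPM in control testis, against 22.75, 27.71 and 24.09 TPM in control brain. Those ranges overlap. Its log2 difference in the count fit was 0.85 ± 0.11 (SE), and 0.15 on the TPM scale with an adjusted p of 0.21 (limma), which ends the call. Most of the somatic branch of the family ran the other way in brain. Of 7 Argonaute and microRNA genes, 5 were called lower in control testis than in control brain, as were 41.2% of all genes, and 1 higher. Ago1 had 2.758, 3.03 and 3.495 TPM in control testis, against 41.72, 40.66 and 40.39 TPM in control brain, a log2 difference of -3.02 ± 0.1 (SE). Ago2, the cleaving member of the family in mammals, had 4.656, 5.937 and 6.614 TPM in control testis, against 31.06, 32.14 and 37.83 TPM in control brain. The 5 lower calls (Ago1, Ago2, Ago3, Dicer1 and Drosha) stood under each of the 12 settings tried, which include another scaling and TPM. Ago4 lay above 0 against brain under each of the 12 settings and was called higher in testis under 11. Against liver the 7 genes were split, with 3 called higher in control testis and 2 lower. Of all 20079 genes tested there, 10844 were called higher and 6927 lower. Ago4, Drosha and Dgcr8 were called higher than in liver, and Ago1 lower, under each of the 12 settings. The directions of Ago2 and Ago3 against liver changed with the scaling, so none is given.

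Within testis, levels are compared on the TPM scale, which corrects for gene length. Over the 6 testis libraries Mael was the most abundant member at 1680 ± 166 TPM (SD, n = 6), with a range of 1391 to 1856, and it made up 55.2 ± 2.15% of the summed TPM of the 10 genes. Ddx4 followed at 518.4 ± 111 TPM. Its lowest library, at 315.5 TPM, lay within the range of Tdrd6, whose libraries ran from 187.8 to 318.2 TPM around a mean of 274.3 ± 49.1, yet Ddx4 was above Tdrd6 in 6 of 6 libraries. Piwil1 averaged 260.2 ± 22.3 TPM and was below Tdrd6 in 4 of 6 libraries, so those 2 levels did not differ beyond their spread. A gap of 3.19-fold separated Piwil1 from the next gene.

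Tdrd1, Piwil2 and Tdrd9 formed a group with overlapping ranges at 81.67 ± 8.26, 79.62 ± 11.7 and 78.13 ± 6.49 TPM. Mov10l1 stood below them at 55.49 ± 4.71 TPM without overlap, and Asz1 below that at 21.46 ± 4.3 TPM. Piwil4 came last at 0.1647 ± 0.0843 TPM, 130 times below Asz1. Of the summed TPM of the 3 Piwi genes, Piwil1 held 77.4, 78.2 and 77.6% in the stress testis libraries, against 76.8, 76.0 and 73.6% in the control testis libraries. All stress libraries were above all control libraries in this share with means of 77.8 ± 0.431% and 75.5 ± 1.66% (SD, n = 3 each). With 3 against 3 libraries no exact two-sided permutation test can fall below p = 0.1, and none was run.

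**Figure D2:**
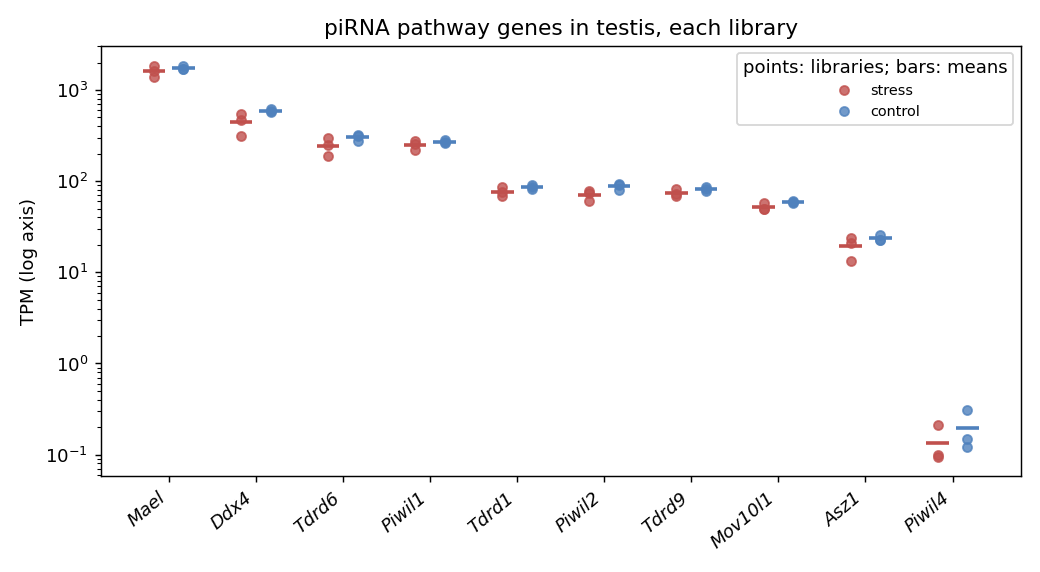
TPM (log axis) of the 10 genes in the 6 testis libraries, stress left of control, with a bar at each group's mean. The genes fall into steps, from Mael near 1680 TPM through Ddx4, the pair Tdrd6 and Piwil1, the trio Tdrd1, Piwil2 and Tdrd9, and Mov10l1 and Asz1, down to Piwil4 at 0.1647 TPM.

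By the rule of likeness used here, the smallest root mean square difference of log2(TPM + 1) over all 18 libraries, the 5 protein-coding genes closest to Piwil1 were Acsbg2 (0.113), Fscn3 (0.116), Tex29 (0.124), Csl (0.129) and Oxct2a (0.129). Their highest value in any brain or liver library was 0.357 TPM. Acsbg2, an acyl-CoA synthetase of testis, ran from 241.4 to 287.8 TPM in testis libraries, beside 220.7 to 285.6 TPM for Piwil1.

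Promoter sequences are shown because 9 of the genes share high testis levels, and that of Piwil4 because it was nearly silent there. They are the 250 bases before the annotated start from RefSeq (GRCm38.p6, not the build on which the reads were placed). A window was matched for 8 of the 10 genes, with 11 windows in all. Only windows of Piwil1, Mael, Ddx4 and Piwil4 are printed. Capitals mark 3 letter strings searched on both strands: CACGTG, the E-box bound by basic helix-loop-helix proteins, which reads the same on both strands; CAGTTG, a core bound by MYB proteins; and TCCCGC, a core bound by E2F proteins (GCGGGA on the other strand).
Piwil1, chr5:128735996-128736245, plus strand: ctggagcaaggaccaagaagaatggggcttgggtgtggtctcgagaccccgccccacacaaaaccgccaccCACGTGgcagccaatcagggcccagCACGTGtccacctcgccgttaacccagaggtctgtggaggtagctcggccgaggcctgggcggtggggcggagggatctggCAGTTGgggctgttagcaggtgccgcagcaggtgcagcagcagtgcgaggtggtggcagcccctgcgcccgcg
Mael, chr1:166238745-166238994, minus strand: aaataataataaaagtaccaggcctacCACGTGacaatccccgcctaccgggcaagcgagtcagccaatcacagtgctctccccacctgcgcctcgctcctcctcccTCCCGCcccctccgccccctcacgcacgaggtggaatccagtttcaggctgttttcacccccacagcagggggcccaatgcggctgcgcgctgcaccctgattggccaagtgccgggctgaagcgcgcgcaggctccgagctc
Ddx4, chr13:112652311-112652560, minus strand: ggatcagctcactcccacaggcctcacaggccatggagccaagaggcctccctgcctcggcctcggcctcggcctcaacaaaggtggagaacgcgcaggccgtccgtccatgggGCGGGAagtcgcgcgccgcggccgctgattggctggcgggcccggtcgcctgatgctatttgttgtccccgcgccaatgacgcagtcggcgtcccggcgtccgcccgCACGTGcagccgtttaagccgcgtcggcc
Piwil4, chr9:14740673-14740922, minus strand: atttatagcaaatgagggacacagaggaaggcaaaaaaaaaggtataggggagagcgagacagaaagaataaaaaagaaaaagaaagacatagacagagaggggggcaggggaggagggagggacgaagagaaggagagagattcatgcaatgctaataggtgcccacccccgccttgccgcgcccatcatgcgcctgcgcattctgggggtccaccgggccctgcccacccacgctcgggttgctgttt

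The E-box was found in the windows of 6 of the 8 genes, including every gene printed above that was high in testis. It stood 179 and 154 bases before the start of Piwil1, 223 before Mael, 29 before the listed start of Ddx4, 165 and 95 before Tdrd9 and 246 before Mov10l1. The listed start of Ddx4 was the only one whose following bases were not found in an annotated transcript, so its distances are less certain. In Tdrd1 one E-box fell in 2 overlapping windows, 11 and 77 bases before their starts. Of all 27025 genes with a window, 6.86% held this string, and of 32851 windows 6.02% did. Both sets of windows differ in CpG content from most windows of the members. Those shown above hold 16 (Piwil1), 18 (Mael), 31 (Ddx4) and 10 (Piwil4) CpG dinucleotides, against a median of 6 over all windows. Those not shown hold 0 (Piwil4), 3, 11 and 22 (Tdrd1), 8 (Tdrd9), 19 (Mov10l1) and 15 (Asz1). Among genes with at least 10 CpG in a window the share with an E-box was 10.8%. Among testis-restricted genes with as many CpG it was found in 30 of 176. Those limits (20 TPM or more on average in testis, under 1 TPM elsewhere, 10 CpG) were set after the values had been seen. Only 7 members met the TPM limits. Ddx4, which holds an E-box, did not, and the window of Tdrd9 fell short of 10 CpG. The count of 6 of 8 members is therefore not of a like set with the 30 of 176.

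The other strings were rarer among the members. The MYB core stood in 1 member, 73 bases before Piwil1, and in 11.1% of all windows. The E2F core stood in 2, 143 bases before Mael and 136 before Ddx4, and in 16.9% of all windows. The windows of Piwil4 held none of the 3 strings. Nor did that of Asz1, which was also far higher in testis and is not printed. Of the other piRNA biogenesis factors, 2 of 13 with a window held an E-box (Fkbp6 and Pld6), and of the meiotic prophase markers 3 of 6. A match describes these letters and is not evidence of binding.

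Restraint stress was followed by no called change in any member in testis. Of the 9 members that passed the filter on low counts, 0 were called at an adjusted p of 0.05, and 0 were called by DESeq2, which tested all 10. The background was low as well, with 4 of 19915 tested genes called by edgeR (0.0201%) and 60 of 31670 by DESeq2. At an unadjusted p under 0.05 stood 1 of the 9 members, Ddx4, against 11.7% of all genes. All 9 log2 fold changes lay below 0, with a median of -0.09, where 47.9% of all genes lay below 0 and their median was 0.01. No test was made of that count, because members of one pathway expressed in the same cells are not independent. In whole testis RNA, fewer cells of a type and less RNA per cell cannot be told apart.

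For the Piwi genes, values are in CPM scaled by trimmed mean of M-values within testis, for libraries 1, 2 and 3 of each group. Piwil1 had 441.2, 393.4 and 423.1 CPM in stress testis, against 426.8, 452.9 and 408.2 CPM in control testis. The groups overlapped, the log2 fold change was -0.03 ± 0.089 (SE; 95% interval -0.23 to 0.17) and the adjusted p of edgeR's quasi-likelihood test was 0.881. Piwil2 had 160.1, 136.1 and 151.6 CPM in stress testis, against 160.0, 177.9 and 182.2 CPM in control testis. All but the first stress library lay below the lowest control library, and the first lay marginally above it, so the groups just overlapped. The log2 fold change was -0.22 ± 0.097 (interval -0.43 to 0.00; adjusted p 0.424, edgeR). Piwil4 had raw counts of 7, 7 and 15 in stress testis, against 19, 9 and 8 in control testis, and did not pass the filter.

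Of the helicases, Ddx4 had the largest difference of any tested member. It had 593.9, 406.3 and 607.1 CPM in stress testis, against 712.4, 663.0 and 659.3 CPM in control testis. All stress libraries lay below all control libraries, as they did for 10.7% of all tested genes. The log2 fold change was -0.34 ± 0.15 (interval -0.67 to -0.01) and the adjusted p 0.422 (edgeR's quasi-likelihood test). The second stress library carried much of the size: without it the log2 fold change was -0.18 ± 0.0707, with an adjusted p of 0.448. Mov10l1 had 90.64, 94.7 and 93.82 CPM in stress testis, against 102.6, 96.92 and 96.88 CPM in control testis, again without overlap and with a log2 fold change of -0.09 ± 0.081 (adjusted p 0.638). Tdrd9 had 164.2, 177.4 and 173.5 CPM in stress testis, against 172.2, 178.0 and 184.0 CPM in control testis. Those groups overlapped, with a log2 fold change of -0.05 ± 0.082 (adjusted p 0.791).

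Among the Tudor scaffolds, Tdrd6 had 782.5, 599.7 and 821.0 CPM in stress testis, against 800.8, 890.7 and 887.6 CPM in control testis. The third stress library lay above the lowest control library, and the second lay far below all others. Its log2 fold change was -0.23 ± 0.12 (interval -0.51 to 0.05; adjusted p 0.468, edgeR), and -0.10 ± 0.0735 without the second stress library. Tdrd1 had 183.4, 168.5 and 181.8 CPM in stress testis, against 180.8, 200.2 and 186.9 CPM in control testis, with overlapping groups and a log2 fold change of -0.09 ± 0.086 (adjusted p 0.646). Mael, the most abundant member, had 1240, 1090 and 1231 CPM in stress testis, against 1310, 1181 and 1165 CPM in control testis. The groups overlapped, and the log2 fold change was -0.04 ± 0.095 (interval -0.25 to 0.17; adjusted p 0.874).

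Asz1, the mitochondrial anchor, had 26.22, 16.99 and 26.32 CPM in stress testis, against 29.64, 25.75 and 24.98 CPM in control testis. Its second stress library was the lowest of the 6 and the other two lay inside the control range. The log2 fold change of -0.21 ± 0.17 (interval -0.59 to 0.18; adjusted p 0.591, edgeR) came to -0.03 ± 0.105 when that library was left out. Without the second stress library the log2 fold changes of the others were -0.16 for Piwil2, -0.10 for Mov10l1, -0.08 for Tdrd9, -0.06 for Tdrd1, 0.01 for Mael and 0.00 for Piwil1. In all, 7 of the 9 members then lay below 0 and 2 (Piwil1 and Mael) at or just above it, with a median of -0.08, and 0 were called.

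**Figure D3:**
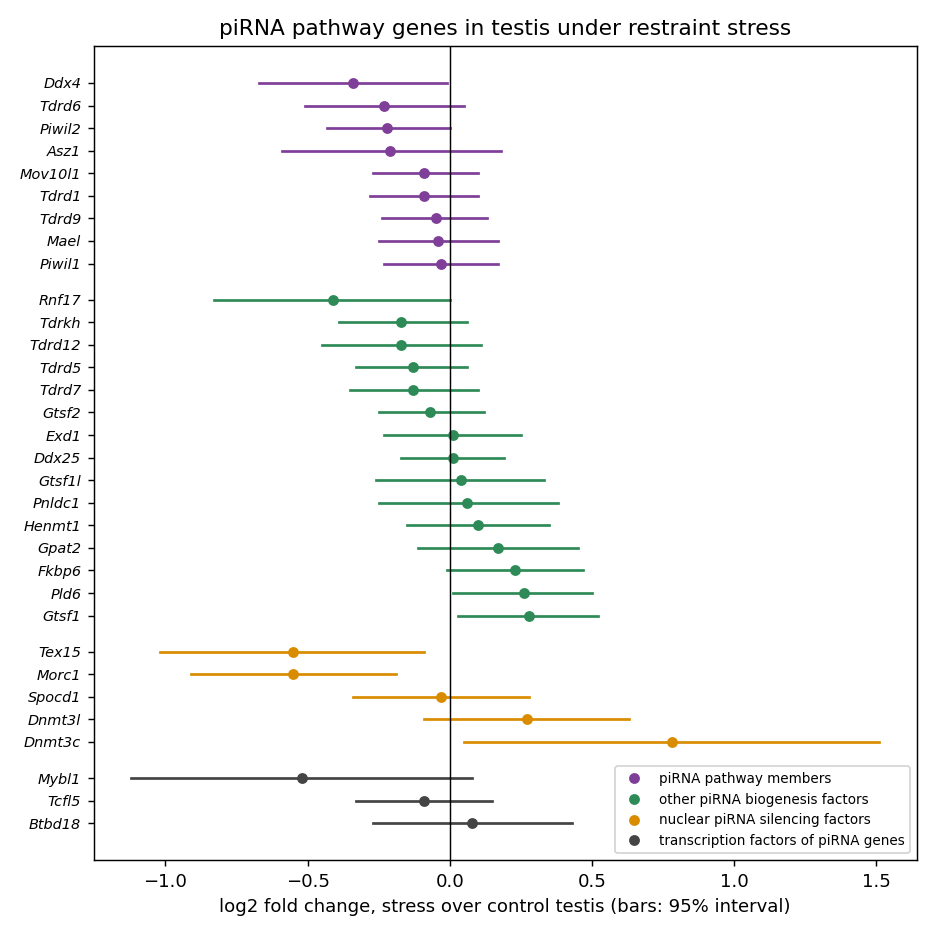
Log2 fold changes of stress over control testis (points) with 95% intervals (bars) for the 9 tested members and the tested genes of 3 wider lists. Every member lies left of 0, from -0.34 for Ddx4 to -0.03 for Piwil1, while the other biogenesis factors lie on both sides.

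Member by member, the second stress library was low in some genes and not in others. Against the control mean, Ddx4 was at -0.74 on the log2 scale in that library (-0.19 and -0.16 in the other two stress libraries), Asz1 at -0.64 (-0.03 and -0.03), Tdrd6 at -0.52 (-0.14 and -0.07) and Piwil2 at -0.35 (-0.11 and -0.19). Mael was at -0.16, Piwil1 at -0.13, Mov10l1 at -0.06 and Tdrd9 at 0.00 there. It was the lowest of the 6 libraries for 7 of the 9 members, against 30.0% of all tested genes.

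Markers of germ cell stages and of somatic cells moved in the same library. The 8 meiotic prophase markers, which include the synaptonemal complex genes, had a median deviation of -0.91 in the second stress library, against -0.20 and -0.10 in the other two stress libraries and -0.10 to 0.16 in the control libraries. Their sums were 582.9 to 1286 CPM in stress testis and 1343 to 1615 CPM in control testis. Without the second stress library their median log2 fold change was -0.15, with 1 above 0, 7 below and 0 called. Sycp1, which builds the transverse filaments of the synaptonemal complex, had 203.4, 25.34 and 211.3 CPM in stress testis. In control testis it had 291.4, 245.0 and 241.7 CPM. Its log2 fold change without the second stress library was -0.33. The 6 late spermatocyte markers had a median of -0.07 in the second stress library and the 7 round spermatid markers of -0.01. Ccna1, a cyclin of late spermatocytes, had 150.5, 142.8 and 144.5 CPM in stress testis, against 145.4, 147.7 and 146.2 CPM in control testis.

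In the somatic lists, the 9 Sertoli cell markers had a median of 0.47 in the second stress library and summed to 1195 to 1869 CPM in stress testis and 1178 to 1275 CPM in control testis. The 5 macrophage markers had a median of 0.71 there and summed to 19.07 to 35.73 CPM in stress testis and 16.68 to 19.29 CPM in control testis. The 7 Leydig cell markers had a median of -0.90 there, against -0.33 and -0.21 in the other two stress libraries, with 2 genes above 0 and 5 below over the groups. Their sum went the other way, at 513.8 CPM in the second stress library, with 378.7 to 513.8 CPM in stress testis and 428.7 to 456.2 CPM in control testis. Insl3, a peptide hormone of Leydig cells, had 106.1, 271.1 and 86.1 CPM in stress testis, against 79.69, 77.6 and 61.58 CPM in control testis. Without the second stress library its log2 fold change was 0.39. The Leydig cell markers then had a median log2 fold change of -0.26 (2 above 0 and 5 below). The medians were then -0.04 for the Sertoli cell markers (4 above, 5 below) and 0.18 for the macrophage markers (4 above, 1 below). No gene of the meiotic, Sertoli, macrophage or Leydig list was called in testis in the reported fit. Star, the cholesterol carrier of steroid synthesis, with a log2 fold change of -0.91 and an adjusted p of 0.422 there, was called by DESeq2 (adjusted p 0.00761) and by edgeR with no filter (0.0406), and the luteinizing hormone receptor gene Lhcgr by DESeq2 (0.0457). Without the second stress library Star stood at -0.91 and Lhcgr at -1.03, and neither was called by edgeR. The part of the marker lists in the members' values was not tested. The rule for named genes did not pick Sycp1, Ccna1, Insl3, Star, Lhcgr, Rnf17, Tdrd7, Tdrkh, Ago2 or Ttr, nor the other marker genes of the heat map; these were chosen after their values were seen.

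**Figure D4:**
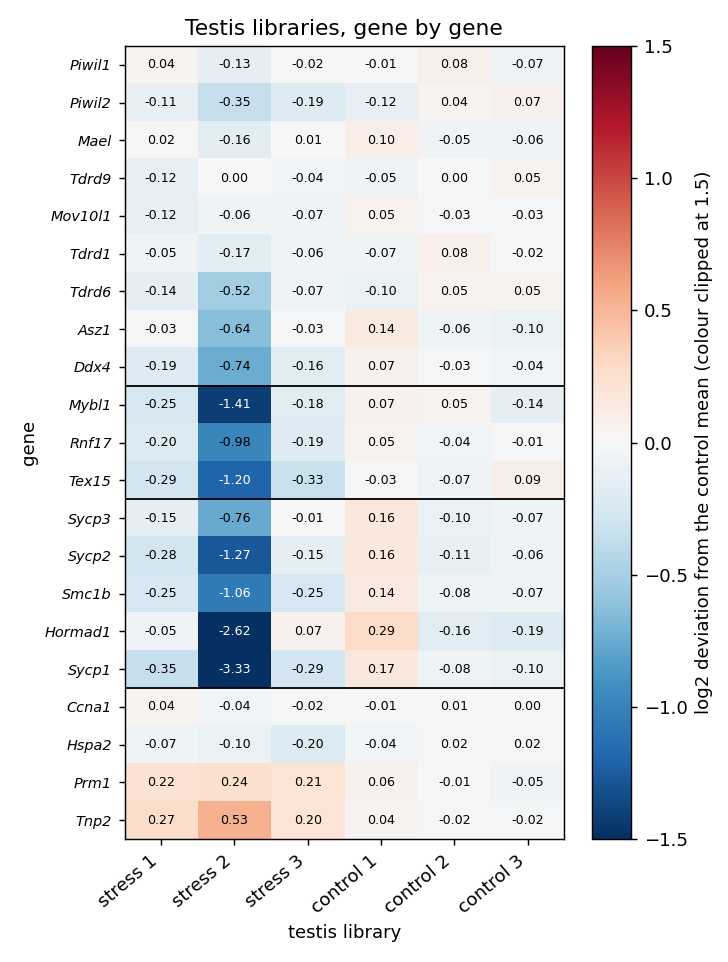
Log2 deviation of each testis library from the control mean (colour, clipped at 1.5, and printed value) for the 9 tested members at the top, then 3 further piRNA genes, 5 meiotic prophase markers and 4 markers of later stages. The second stress library is low for Ddx4 (-0.74), Asz1 (-0.64) and Tdrd6 (-0.52), lower for Mybl1 (-1.41) and Sycp1 (-3.33), and near 0 for Tdrd9 and Ccna1. The rows below the members do not show whole lists. Meiotic markers left out were Meiob (-0.65), Dmc1 (-0.15) and Spo11 (-0.13) in that library. Among others left out, Akap4 was at -0.60, Gtsf1 at 0.35, Fkbp6 at 0.36 and Dnmt3l at 0.43 there.

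**Figure D5:**
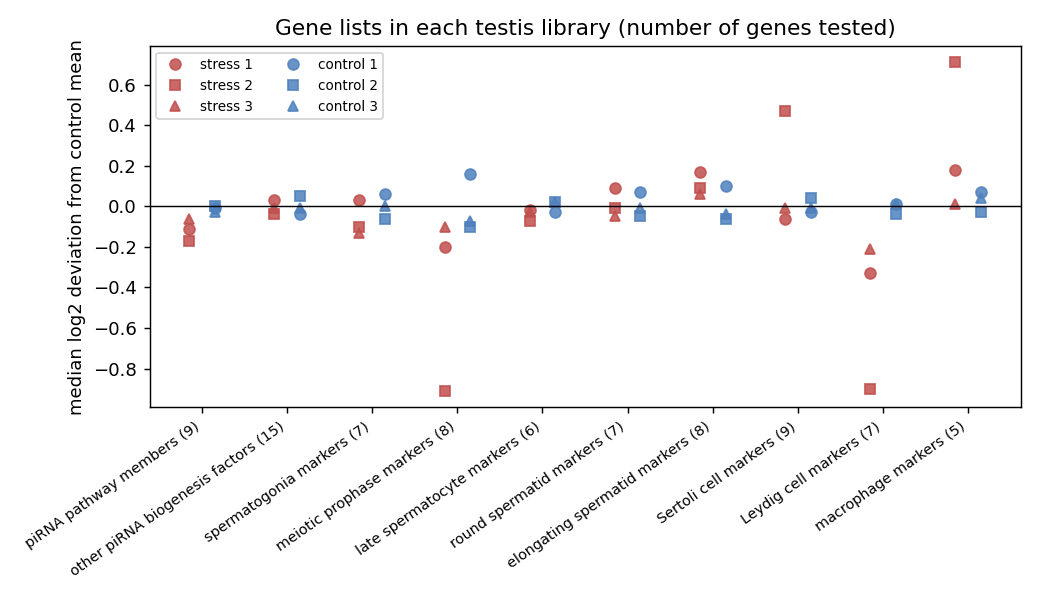
Median log2 deviation from the control mean of 10 gene lists in each testis library, stress points left of control points, with the number of genes tested in brackets. The members lie between -0.17 and 0.00 in all libraries, and the meiotic prophase markers reach -0.91 in the second stress library.

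The wider piRNA machinery in testis moved in both directions and gave no call either. Of the 15 other biogenesis factors, 9 had log2 fold changes above 0 and 6 below, with a median of 0.01. Gtsf1, a small zinc finger protein that assists Piwi cleavage, had 219.1, 226.0 and 200.5 CPM in stress testis, against 152.7, 185.6 and 194.7 CPM in control testis. The groups did not overlap, as for 10.3% of all genes in that direction, and the log2 fold change was 0.28 ± 0.11 (adjusted p 0.422, edgeR). Pld6, the mitochondrial nuclease that cuts piRNA precursors, had 52.93, 52.92 and 50.79 CPM in stress testis, against 37.54, 45.35 and 48.3 CPM in control testis, a log2 fold change of 0.26 ± 0.11 (adjusted p 0.422). Both stood at 0.24 without the second stress library. Rnf17, a Tudor protein of its own germ granule, had 229.9, 133.8 and 231.6 CPM in stress testis. In control testis it had 272.8, 257.2 and 263.1 CPM, and the second stress library was again far below the rest. Without that library its log2 fold change was -0.20.

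Of 6 nuclear silencing factors, 5 were tested, 2 above 0 and 3 below, and 0 were called. Morc1, an ATPase needed for transposon repression in male germ cells, had 4.907, 5.029 and 5.544 CPM in stress testis, against 6.707, 7.33 and 8.656 CPM in control testis. Its groups did not overlap, and its log2 fold change of -0.55 ± 0.16 (adjusted p 0.422, edgeR) did not rest on the second stress library, being -0.54 without it. Tex15, which joins Piwil4 in directing DNA methylation in fetal germ cells, had 144.3, 76.59 and 140.9 CPM in stress testis, against 172.8, 169.0 and 188.7 CPM in control testis. Its log2 fold change was -0.55 ± 0.21 (adjusted p 0.422), and -0.32 without the second stress library.

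Of the 3 transcription factors listed for piRNA genes in the mouse, 1 (Btbd18, at 0.08) lay above 0 and 2 below, and 0 were called. Mybl1 (A-MYB) had 77.7, 34.42 and 81.75 CPM in stress testis, against 97.51, 96.09 and 84.1 CPM in control testis, without overlap. Its log2 fold change was -0.52 ± 0.27 (adjusted p 0.451, edgeR), and -0.22 without the second stress library. Tcfl5, a basic helix-loop-helix protein, had 306.8, 259.5 and 329.8 CPM in stress testis, against 333.4, 310.5 and 309.7 CPM in control testis, with overlap and a log2 fold change of -0.09 ± 0.1. Of 4 widely expressed cofactors, 3 lay below 0. Hsp90aa1, a chaperone used in loading small RNAs, had 1773, 1195 and 1850 CPM in stress testis, against 2260, 1996 and 1975 CPM in control testis, a log2 fold change of -0.37 ± 0.16 (adjusted p 0.422), and -0.20 without the second stress library. Snrpd3, a spliceosome protein, was at 0.25 ± 0.15.

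All 7 Argonaute and microRNA genes lay below 0 in testis, as did 47.9% of all tested genes. Their median was -0.14, with 0 calls. Their median deviation from the control mean was -0.11, -0.16 and -0.15 in the stress libraries. In the control libraries it was -0.14, 0.00 and 0.10, so the first control library was as low as the stress libraries. Ago1 had 8.369, 7.528 and 7.719 CPM in stress testis, against 9.123, 9.894 and 11.21 CPM in control testis, a log2 fold change of -0.36 ± 0.14 (adjusted p 0.422, edgeR). Ago3 was at -0.27 ± 0.13. Without the second stress library Ago1 stood at -0.33 and Ago3 at -0.26.

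In brain, traces of the pathway were measured without any called change. There 5 members passed the filter, 0 of them were called by edgeR (0 by DESeq2 as well, and 0 at an unadjusted p under 0.05), and 1 of 17668 genes was (0.00566%; 7.54% at an unadjusted p under 0.05). DESeq2 called 120 of 27923 genes. With the replicate number as a block, 22 genes were called (17 higher and 5 lower) and still 0 members. That pairing was inferred from these same values and no label states it. Ddx4 was the most counted member, with 96, 131 and 122 counts in stress brain, against 128, 115 and 126 in control brain, which is 3.552, 4.607 and 4.423 TPM against 4.493, 4.224 and 4.015 TPM. The groups overlapped, and the log2 fold change was -0.03 ± 0.18 (adjusted p 0.978, edgeR). Piwil2 had 29, 26 and 34 counts in stress brain, against 35, 31 and 49 in control brain, with a log2 fold change of -0.31 ± 0.3 (adjusted p 0.851). Tdrd6 had 44, 79 and 46 counts in stress brain, against 61, 69 and 64 in control brain. Its groups overlapped at about 1 TPM.

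The rest were scattered over brain libraries. Tdrd1 ranged from 14 to 29 counts in stress brain and from 6 to 38 in control brain, and Tdrd9 from 5 to 39 in stress brain and from 22 to 26 in control brain. Mael had 2, 14 and 8 counts in stress brain, against 8, 0 and 0 in control brain, and Piwil1 had at most 8 in any brain library. Of the wider genes, Mybl1 had 1.639, 1.743 and 2.027 TPM in stress brain, against 2.629, 2.867 and 2.504 TPM in control brain, with a log2 fold change of -0.58 ± 0.18 (adjusted p 0.579, edgeR). All its stress libraries lay below its control libraries, as for 6.64% of all genes in brain. Transthyretin (Ttr), which is abundant in choroid plexus, had 10.2, 1390 and 871.1 TPM in stress brain, against 1.805, 16.14 and 0.7448 TPM in control brain. It was not called in the reported fit but was with the replicate block (adjusted p 0.0191, edgeR). Its part in these brain values was not tested.

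In liver the pathway was at the counting limit. All 10 members together had 48 counts over the 6 libraries, of which 32 were Piwil2. Piwil2 had 2, 6 and 0 counts in stress liver, against 10, 10 and 4 in control liver, and 0 members passed the filter. With no filter, 6 could be fitted and 0 were called by edgeR, which called 858 of 23250 genes there. DESeq2 also tested 6 and called 0, with 818 of 23243 genes called. The filtered liver comparison, which tested no member, called 1.63% of 14253 genes. Piwil1, Tdrd1, Mov10l1 and Asz1 had no count in any liver library. A change in liver was not detectable at this depth. The cofactor Hsp90aa1 had 185.0, 380.6 and 295.4 TPM in stress liver, against 73.32, 183.2 and 203.5 TPM in control liver. The groups overlapped, and it was not called in the reported fit but was with no filter (log2 0.91, adjusted p 0.0171, edgeR) and with the replicate block (adjusted p 0.0228). Of the marker lists, 5 genes were called in liver. Zbtb16, a transcription factor that marks spermatogonia in testis, rose with a log2 fold change of 3.46 ± 0.35 (adjusted p 0.00351, edgeR) and was called under 12 of 12 settings. The macrophage genes Csf1r, C1qa and Cd163 rose by 1.11, 1.23 and 1.75 on the log2 scale. They were called under 9, 11 and 11 of 12 settings. Of the 5 macrophage markers tested, 4 lay above 0 and 1 below. Adgre1, at 1.25, was called under 2 of 12 settings. Cd68 ranged from -0.40 to 0.15 over the settings and was called under 0 of 12. The fibrinogen gene Fgb was at -0.63 with an adjusted p of 0.0476, and 7 of 12 settings did not call it.

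The stress effect in testis was also set against that in brain, for the 5 members that passed the filter in both. The difference (testis minus brain) was -0.30 ± 0.22 for Ddx4 (adjusted p 0.681, edgeR interaction), 0.10 ± 0.21 for Piwil2, -0.06 ± 0.27 for Tdrd6, -0.06 ± 0.47 for Tdrd1 and 0.01 ± 0.44 for Tdrd9. None was called, nor was any of the 22391 genes by edgeR (0%), of which 9.43% had an unadjusted p under 0.05. DESeq2 called 81 genes and 0 members. The intervals are wide for the brain values, from -0.78 to 0.18 for Ddx4, so these data do not show that the tissues respond alike.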

How the data were processed

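RNA was sequenced in 18 libraries (stress and control testis, brain and liver, 3 each). Per the labels' protocols, a strand-marking kit was used on total RNA; per the submitters' processing notes the build was mm39. The aligner, counter and strand setting were not given in the sources used here, so reads of overlapping antisense genes cannot be told apart. The deposited table holds raw read counts per gene, and the authors' TPM and FPKM beside them, per the file headers; FPKM was read only for its column sums and the gene lengths it implies. Ensembl identifiers were paired with symbols through GENCODE M21 (34362 of 34932 matched).

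The deposited counts were tested with edgeR 4.0.16 (R 4.3.3; TMM, filterByExpr, quasi-likelihood, Benjamini-Hochberg over all tested genes), separately within each tissue. DESeq2 1.42.0, limma 3.58.1 on log2(TPM + 0.1), other scaling, no filter, a replicate block and leaving out each library were alternatives. The procedure was tested on simulated counts. Deviations per library are differences of log2(CPM + 0.5). Counting intervals are exact at 95%; they and the floor of 3 counts cover counting error only. No pair of replicates agreed within sampling noise (chi-square per degree of freedom at least 4.66).

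Same-numbered stress and control brain libraries deviated alike (r of same-numbered deviations 0.416, 0.316 and 0.625), an inference from the values. Other matchings were not computed and no label pairs these libraries, so the block rests on the values it was used to test. Replicate numbers did not pair testis or liver. Across tissues, shared codes, read as animals, would pair the libraries. The reported fits between tissues and of the difference of stress effects were unpaired, so their standard errors leave that pairing out. The replicate block was the alternative that used it.

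Genes named were the members, those of each list called under stress, and the 2 with the smallest p in testis. Members and lists were chosen with earlier results of these data known.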

Additional observations from a re-analysis of the deposited data

How the results depend on the processing

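No member was called under stress in any tissue under any setting run, and 9 of 9 stayed higher in testis than in brain or liver. Where Piwil4 was tested as well, it was called higher than brain in 5 of 6 settings (not without control brain replicate 1). It was called higher than liver in 6 of 6. All of these settings kept control testis replicate 1, which held 19 of its 36 control testis counts, so they are no separate support. Over 12 settings the smallest adjusted p of a member in testis was 0.272 (Ddx4, without stress testis replicate 3), and the log2 fold change of Ddx4 ranged from -0.45 to -0.18. Piwil1 and Mael passed 0 (up to 0.01 and 0.02). Calls over all genes moved more. Testis gave 4, against 60 by DESeq2, 25 unfiltered, 6 with the replicate block, 0 by limma and 0 to 21 with a library left out. Brain gave 1, against 120 by DESeq2, 22 with the block, 2 unfiltered and 0 or 1 with a library left out. Liver gave 232, against 818 by DESeq2, 858 unfiltered, 475 with the block, 129 by limma and 31 to 291 with a library left out. The difference of stress effects gave 0 for testis minus brain (DESeq2 81, limma 8, unfiltered 8) and 33 for testis minus liver (DESeq2 718, unfiltered 134, block 16, library left out 0 to 129). The cause was not tested. In testis the numbers did not pair libraries (r = 0.126, 0.142 and -0.174); the block changed no member's call. On the TPM scale, testis against brain gave 8174 higher and 10723 lower calls, against 9905 and 8679, and testis against liver 13368 and 4554, against 10844 and 6927. The median of all genes there was -0.488 and 1.921 on the TPM scale, 0.2 and 0.927 in the reported fits. In liver stress, 6 members could be tested unfiltered and by DESeq2, and the other alternatives gave no value. Depth limits Piwil4 in testis and most members in brain and liver.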
